A study of Rattus norvegicus with 8 samples.

Results

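The genes described here encode the proteins of the cytosolic ribosome, the particle that translates messenger RNA in the cytoplasm. They were taken from a table of read counts for 30562 rat genes as the protein-coding rows whose symbol is Rpl or Rps with a number (with or without the suffix a for Rpl or x for Rps), Rplp0 to Rplp2, or Rpsa. The pattern matched 71 rows with 66 symbols. Of these, 65 rows with 63 symbols had 10 or more reads summed over the 8 libraries: 36 rows of the large subunit, 26 of the small subunit and 3 of the stalk. A further 6 rows had 0 to 6 reads and were left out, namely second rows of the symbols Rpl21, Rps6 and Rpl35a, and the only matching rows of Rps20, Rpl30 and Rpl38. The last 3 symbols have well-covered rows outside the pattern, described below, so their few reads do not show that the genes are silent. After a filter on low counts (filterByExpr of edgeR), 62 of the 65 rows were tested among 16591 genes, and 3, Rpl39 and Rpl9 among them, were not.

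A ribosome has a small subunit, which reads the message, and a large subunit, which joins amino acids. Each is built from ribosomal RNA and a set of proteins, most of them needed in equal numbers, and the genes are usually expressed in step. Their messages begin with a C followed by a run of pyrimidines, the 5′ terminal oligopyrimidine (TOP) tract, through which the kinase mTOR and the RNA-binding protein LARP1 set how much of each message is translated. In liver these genes are abundantly expressed, since hepatocytes make most proteins of blood plasma, and free RPL5 and RPL11 are known to bind MDM2 and so to stabilise p53 when ribosome assembly is disturbed.

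The libraries were made from liver of male Wistar rats that weighed 160 g at the start. Of 20 rats in groups of 5, 2 per group were sequenced as separate animals with paired reads of 150 bp. The HCB group was given hexachlorobenzene, a persistent organochlorine fungicide, by gavage at 100 mg per kg body weight 3 times a week for 30 days, in water with Tween-20. The combination group had HCB and atorvastatin on these schedules. The atorvastatin group had the statin, an inhibitor of HMG-CoA reductase, in its drinking water at a stated 5 mg per kg a day, although the stated recipe of 5 mg in 20 mL of daily water comes to 31.25 mg per kg for a rat of 160 g. The control group had vehicle only, and all rats were killed on day 37 under ketamine and xylazine. The study asks how the statin modifies early liver lesions that HCB induces.

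The promoter starts of these genes are shown because the TOP tract is typical of the family, although not every promoter below carries it at the annotated start. RefSeq (assembly GRCr8) held a promoter on the same chromosome for 49 of the 65 rows. Each sequence below runs from 30 bases before the annotated transcription start to 20 bases from it. Capitals mark a run of a C followed by at least 4 pyrimidines that begins within 5 bases of the annotated start. The set comprises the 5 genes with the smallest p for HCB exposure and the 3 stalk genes.
Rpl4 (chr8:73566447-73566496, plus strand): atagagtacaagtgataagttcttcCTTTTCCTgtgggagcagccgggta
Rps4x (chrX:71342902-71342951, minus strand): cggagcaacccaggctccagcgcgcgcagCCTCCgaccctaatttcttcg
Rpl10 (chrX:157205820-157205869, plus strand): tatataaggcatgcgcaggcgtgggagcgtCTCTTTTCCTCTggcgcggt
Rpl37 (chr2:55942915-55942964, plus strand): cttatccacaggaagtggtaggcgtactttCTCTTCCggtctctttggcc
Rpl14 (chr8:129163590-129163639, plus strand): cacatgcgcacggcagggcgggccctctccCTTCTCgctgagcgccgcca
Rplp0 (chr12:46718371-46718420, minus strand): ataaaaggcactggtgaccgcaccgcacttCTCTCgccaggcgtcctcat
Rplp1 (chr8:71290853-71290902, minus strand): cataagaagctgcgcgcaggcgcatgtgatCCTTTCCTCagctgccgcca
Rplp2 (chr1:205975891-205975940, plus strand): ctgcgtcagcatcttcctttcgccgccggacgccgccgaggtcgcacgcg

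In Rpl10, Rpl37, Rpl14, Rplp0 and Rplp1 the run began exactly at the annotated start. In Rpl4, where further pyrimidines precede the capitals, and in Rps4x it began shortly before the start, and in Rplp2 no such run began within that distance. A C followed by 4 pyrimidines stood at the annotated start of 18 of the 49 promoters (36.7%), against 2.63% of all 33469 promoters of the same length in that table. Such a run began within 5 bases of the start in 31 of the 49 (63.3%), against 17% of all. Over the whole stretch from 250 bases before to 50 bases after the start, read on both strands, the letters CCGGAAG, a match to the core site of ETS factors, were found in 14 of 49 (28.6%), against 8.75% of all promoters. The letters AAGATGGC, a match to a YY1 site, were in 5 of 49 (10.2%), against 3.17%. TATAAA was in 5 of 49 (10.2%), against 14.2%. Among the 8 genes printed, Rps4x, Rpl37 and Rplp2 held CCGGAAG, Rplp0 held TATAAA and none held AAGATGGC. CCGGAAG read on the other strand is CTTCCGG, which can overlap the pyrimidine run, as it does in Rpl37. These shares describe the letters only, since a match is not a tested site.

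Levels are given as normalised CPM, the counts of a gene scaled to a common library size with the TMM factors of edgeR, and, where genes are compared with each other, as normalised CPM per kilobase of exon. The genes held 2.03 M of the reads assigned to genes (M, reads in units of 1e6), or 0.617% of them. By this per-kilobase level Rpl10, a large-subunit protein at the site where the subunits join, was the highest with a mean of 325 over the 8 libraries. It was followed by Rps2, a small-subunit protein near the entry of the message, at 285, by Rpl26, which lies near the exit of the peptide tunnel, at 205, and by Rpl7a at 197. The order of close neighbours was not stable: Rpl26 ranged over 1.51 log2 units between libraries, more than its distance from Rpl7a.

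At the other end, 5 of the 65 rows lay below 0.3 normalised CPM per kilobase. They included the second row of Rpl22 at 0.297, Rpl39 at 0.163, the second row of Rps13 at 0.142 and Rpl9 at 0.0516. Each of the 5 lay on a chromosome other than that of the RefSeq gene of the same symbol, as did 1 further row, Rps10, at 17.5. The other 59 rows lay on the chromosome of the RefSeq gene. Ribosomal protein genes have many near-identical processed copies in mammalian genomes, and the deposited counts leave out reads with several alignments, so reads of a gene with such copies may be missing or divided between rows. Rpl9, for example, is represented outside the pattern by a row named Rpl9-ps30 with 8 exon records and 31681 reads, against 11 reads for the row named Rpl9. Likewise a row named Rps20-ps10 had 4 exon records and 19783 reads, and one named Rpl38-ps9 had 8 and 9051. A row of Rpl30 labelled lncRNA had 7 exon records and 6655 reads. A paralog of Rpl10 with 1 exon record, Rpl10l, held 8867 reads.

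**Figure D1:**
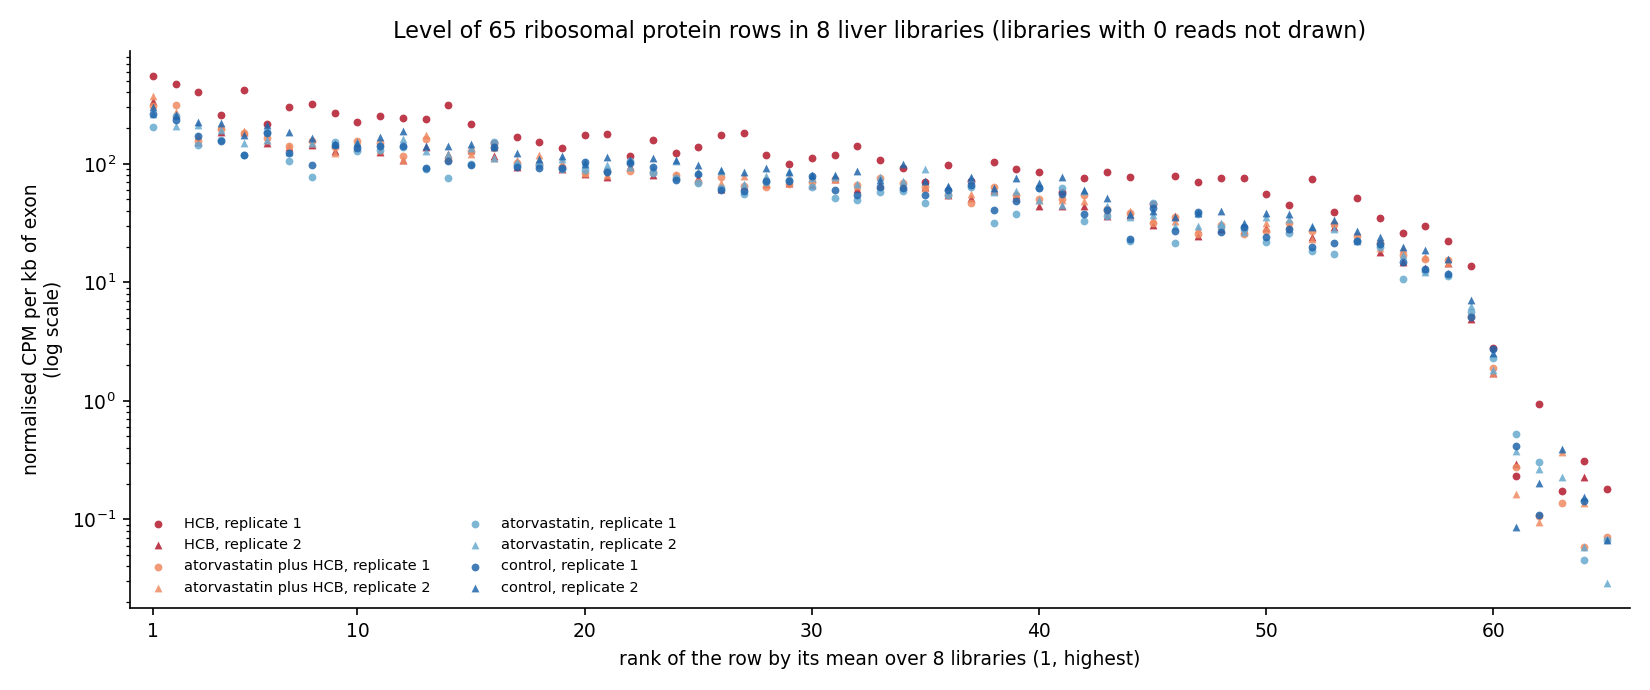
Normalised CPM per kilobase of exon (log scale) of the 65 reported rows, by rank of their mean, in each of the 8 libraries (red HCB, orange atorvastatin plus HCB, light blue atorvastatin, dark blue control; circles replicate 1, triangles replicate 2). The means run from 325 for Rpl10 to 2.18 for Rpl22 and then drop to the 5 rows below 0.3, and the red circles of HCB replicate 1 lie above the other libraries for most genes.

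The libraries differed in ways that bear on these genes. Assigned reads were 38.4 M and 42.1 M in HCB, 51.4 M and 52.0 M in the combination, 29.4 M and 43.8 M in atorvastatin, and 30.2 M and 41.9 M in control. Reads with several alignments made up 19.4% and 12.2% in HCB, 11.3% and 10.7% in the combination, 21.0% and 10.4% in atorvastatin, and 20.3% and 13.2% in control. Reads outside exons were 10.8% and 11.4%, 7.46% and 9.48%, 34% and 19.5%, and 27.7% and 15.3% in the same order of libraries. Every label calls the rats male, yet the summed level of 5 Y-linked genes was 136 to 217 normalised CPM in the 4 HCB-labelled libraries (HCB, and atorvastatin plus HCB) and 1.99 to 3.99 in the other 4. A list of 9 fetal liver and imprinted genes summed to 204 to 385 in the 4 HCB-labelled libraries and 38193 to 52192 in the other 4. For erythroid genes the sums were 513 to 1493 against 2194 to 5410, for neutrophil genes 3.96 to 9.75 against 148 to 240, and for cell-cycle genes 47.4 to 86.3 against 272 to 667. The 10 hepatocyte markers summed to 105201 to 146364 against 54169 to 116527, so the tissue carried its defining markers in every library. In the average effect of HCB described below, the calls were 0 higher and 11 lower of 12 erythroid genes, 0 and 8 of 9 neutrophil, 0 and 9 of 9 fetal and 0 and 11 of 12 cell-cycle genes. They were 7 and 1 of 10 hepatocyte, 2 and 1 of 10 Kupffer cell, 0 and 2 of 8 lymphocyte, 2 and 1 of 8 endothelial, 1 and 4 of 8 stellate, 2 and 2 of 5 bile duct and 4 and 0 of 5 Y-linked genes. Of all genes tested 21.3% were called higher and 25.3% lower, so the Kupffer cell, lymphocyte and endothelial counts do not set those lists apart. The sums of the Y-linked, fetal, erythroid, neutrophil, cell-cycle and stellate lists differed with the HCB label without overlap. Those of the hepatocyte and bile duct lists overlapped. In every HCB comparison below exposure cannot be told apart from the differences in these lists, nor fewer cells of a type from less RNA per cell.

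One library stood apart in the ribosomal protein genes themselves. HCB replicate 1 was the highest of the 8 libraries for 55 of the 62 tested genes and above the gene's own mean for 61 of 62. The genes took 0.850% and 0.495% of assigned reads in HCB, 0.451% and 0.509% in the combination, 0.723% and 0.660% in atorvastatin, and 0.697% and 0.686% in control. On the normalised scale their levels summed to 10339 and 5557 CPM in HCB, 5806 and 5950 in the combination, 5086 and 6006 in atorvastatin, and 5348 and 6807 in control. HCB replicate 1 was thus above the other 7 libraries by both measures, and HCB replicate 2 was within the range of the rest by the normalised sum. By share of reads, HCB replicate 2 and both combination libraries lay below every atorvastatin and control library.

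Replicate 1 exceeded replicate 2 of the HCB group by a median of 0.84 on the log2 scale, with 61 of 62 genes higher and 53 apart by over 0.5. The same median was 0.01 in the combination, -0.25 in atorvastatin and -0.40 in control. Among all 16591 genes tested, 48.7% were higher in HCB replicate 1 than in replicate 2. The widest gaps were those of Rps25 (1.61), a small-subunit protein used in initiation at internal entry sites, of Rpl32 (1.51) and of Rps14 (1.51), of which Rpl32 was chosen after its values were seen. The gap was smaller for the stalk genes Rplp0 (0.54), Rplp1 (0.51) and Rplp2 (0.36).

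Gene length moved with this gap in genes that are not ribosomal. Their median difference between HCB replicate 1 and replicate 2 was 0.37 for 1552 genes under 1 kb, 0.20 for 3499 genes of 1 to 2 kb, -0.01 for 6622 genes of 2 to 4 kb and -0.21 for 4856 genes over 4 kb. The ribosomal protein genes of the first 3 length classes had medians of 0.83 (24 genes), 0.79 (23 genes) and 0.91 (14 genes), above the other genes in each class. Marker lists of blood cells were higher in this library too. Of 12 erythroid genes 9 were higher in HCB replicate 1, with sums of 1493 and 804 normalised CPM, a median difference of 1.21 and no gene at 0 in either library. Of 10 neutrophil genes 7 were higher, with sums of 9.75 and 4.11 and with Elane, Ltf and Ctsg at 0 in both. Of 10 hepatocyte markers 8 were higher, though their sums were 105201 and 116080. The share of reads with several alignments was 19.4% and 12.2%. The part of gene length, of blood cell markers and of reads with several alignments in the gap between these rats was not tested.

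**Figure D2:**
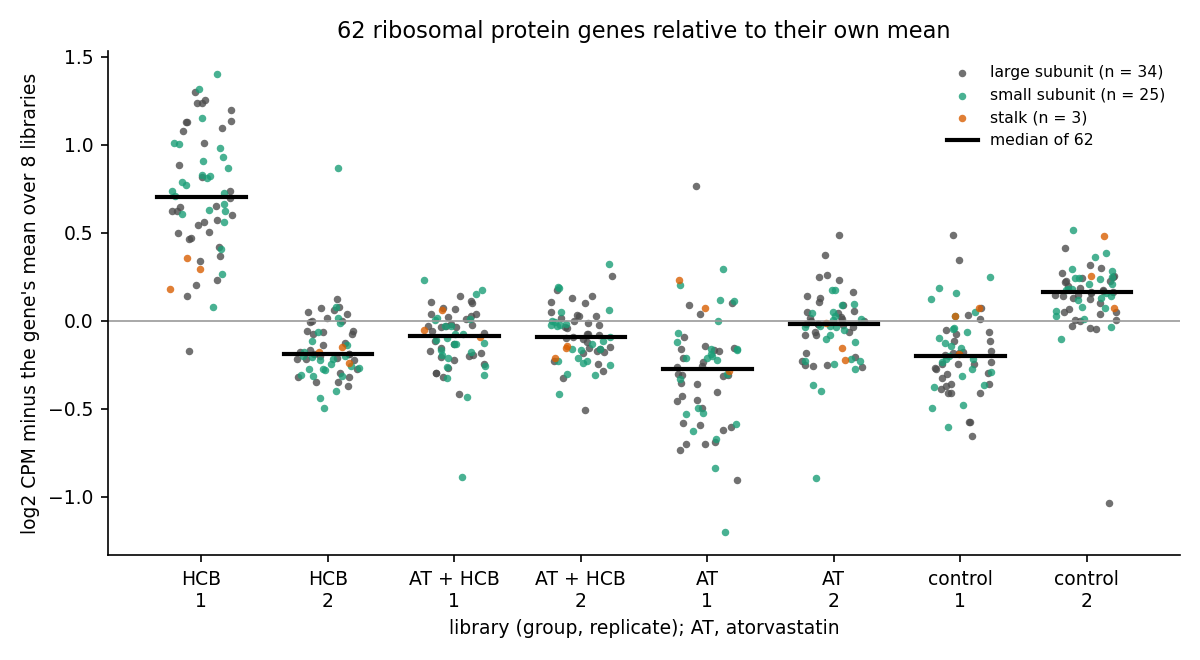
Log2 normalised CPM of each of the 62 tested genes minus its own mean over the 8 libraries, by library (grey large subunit, green small subunit, orange stalk; black line, median). HCB replicate 1 lies above 0 with a median of 0.70, and the medians of the other 7 libraries lie between -0.28 in atorvastatin replicate 1 and 0.16 in control replicate 2.

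Without that library the spread of the genes was narrower. The log2 distance from the lowest to the highest library had a median of 1.17 over the 62 genes, against 1.56 over all genes tested. Without HCB replicate 1 these medians were 0.59 and 1.35. Apart from the barely detected second row of Rps13, at 2.52, the widest spreads were those of Rpl24 (2.04), Rpl27 (2.03) and Rps25 (1.99). Among the narrowest were those of Rplp2 (0.45), Rplp0 (0.54) and Rpl3 (0.54), all abundant genes, of which Rpl3 helps form the peptidyl transferase centre.

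HCB was first compared with control, which asks what exposure changed without the statin. None of the 62 genes passed the threshold (edgeR quasi-likelihood test, Benjamini-Hochberg adjusted p under 0.05 over all 16591 genes), whereas 26.9% of all genes tested did (13% higher and 13.9% lower). At an unadjusted p under 0.05 there were 4 genes, all higher in HCB, and DESeq2 called 1 gene, Rpl4, and 30.8% of all genes. The median log2 fold change was 0.35 over the 62 genes and -0.09 over all genes, with 54 of 62 above 0. By subunit the median was 0.35 for 34 large-subunit genes, 0.40 for 25 small-subunit genes and -0.06 for the 3 stalk genes.

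Rpl4, a large-subunit protein that lines the peptide exit tunnel, had the smallest p. Its level was 592 and 263 normalised CPM in HCB and 168 and 246 in control. Both HCB rats lay above both controls, the second by less than the distance between the controls. On the log2 scale HCB was higher by 1.05 with a standard error of 0.38 (edgeR adjusted p = 0.0602), and errors after ± are standard errors wherever a log2 value is given. Rpl37, a small zinc-binding protein of the large subunit, was at 116 and 52.4 in HCB and 39.4 and 52.4 in control, with a log2 fold change of 0.88 ± 0.35 (edgeR adjusted p = 0.0827). Rpl14 of the large subunit was at 175 and 84.2 against 52.2 and 85.1 (0.92 ± 0.37; edgeR adjusted p = 0.0906), and Rps25 at 258 and 84.7 against 69.3 and 103 (0.99 ± 0.45; edgeR adjusted p = 0.126). Rpl10 was next, at 475 and 294 against 228 and 261 (0.65 ± 0.31; edgeR adjusted p = 0.137). In Rpl37, Rpl14 and Rps25 HCB replicate 2 lay at or within the range of the controls and HCB replicate 1 lay far above it. Without HCB replicate 1 the median over the genes was -0.17, Rps25 stood at -0.0031 and none was called. Without HCB replicate 2 the median was 0.69. In that fit HCB replicate 1 stood alone for its group and was taken to vary like the others, so its calls are not counted.

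Atorvastatin plus HCB was then compared with atorvastatin alone, which asks the same of rats that all received the statin and shares no library with the first comparison. None of the 62 genes passed (edgeR), against 27.6% of all genes (12.6% higher and 15% lower). No gene had an unadjusted p under 0.05, and DESeq2 called none, beside 31.7% of all genes. The median log2 fold change was 0.04, against -0.11 over all genes, with 35 of 62 above 0. It was -0.07 without atorvastatin replicate 1 and 0.20 without atorvastatin replicate 2.

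Rps4x, a small-subunit protein from the X chromosome with a Y-linked counterpart in primates, had the smallest p. Its level was 182 and 194 normalised CPM in the combination and 101 and 143 in atorvastatin, so the groups did not overlap, and the log2 fold change was 0.63 ± 0.33 (edgeR adjusted p = 0.180). Rpl10, also X-linked, was at 267 and 322 against 175 and 227 (0.55 ± 0.31; edgeR adjusted p = 0.201). Rpl15, a large-subunit protein that binds the ribosomal RNA core, was at 90.9 and 108 in the combination and 124 and 142 in atorvastatin (-0.43 ± 0.26; edgeR adjusted p = 0.231). Rpl21 was at 84.3 and 86.3 against 47.1 and 76.3 (0.47 ± 0.30; edgeR adjusted p = 0.264), and Rpl18 at 35.9 and 34.1 against 26.1 and 28.1 (0.37 ± 0.26; edgeR adjusted p = 0.305). The groups did not overlap in these genes, which were picked for their small p in this same comparison, so the separation is no further support. The adjusted p missed the threshold in each, and Rpl15 alone among them was lower with HCB.

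The average of both HCB contrasts sets 4 HCB-labelled libraries against 4 others. In it 4 of the 62 genes were called, all higher with HCB, while 46.6% of all genes tested were called and 21.3% were called higher (25.3% lower). DESeq2 called 5, these and Rpl14, and 48.5% of all genes. The 4 genes that edgeR called, 3 of the large and 1 of the small subunit, were Rpl4 (chr8:64671160-64676306, plus strand), Rps4x (chrX:67298525-67303019, minus strand), Rpl10 (chrX:152054452-152056761, plus strand) and Rpl37 (chr2:54215469-54217442, plus strand), in mRatBN7.2 coordinates of the whole gene. The median log2 fold change was 0.21 over the 62 genes and -0.11 over all genes. The values ran from -0.48 for the second row of Rpl22 to 0.88 for the second row of Rps13, both barely detected. No ribosomal protein gene had a fitted change of more than 1 on the log2 scale in either direction, against 36.0% of all genes.

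Rpl4 rose with HCB: it averaged 346 ± 164 normalised CPM in the HCB-labelled libraries and 198 ± 37.5 in the others (SD, n = 4 each), a log2 difference of 0.76 ± 0.26 (edgeR adjusted p = 0.0347). Its lowest HCB-labelled library, at 257, was above its highest other library, at 246. Rps4x rose by 0.66 ± 0.24 (edgeR adjusted p = 0.0386), with 269 and 154 in HCB rats, 182 and 194 in combination rats, against 101 and 143 in atorvastatin and 102 and 158 in control. HCB replicate 2 lay below control replicate 2 in this gene, so its groups overlapped. Rpl10 rose by 0.60 ± 0.22 (edgeR adjusted p = 0.0408). Its HCB-labelled libraries held 475, 294, 267 and 322 and the others 175, 227, 228 and 261, with no overlap. Rpl37 rose by 0.64 ± 0.24 (edgeR adjusted p = 0.0495), just past the threshold. Its adjusted p was 0.0508 to 0.0619 with TMM factors from the other genes, halved counts, no robust estimation or a stricter filter on low counts, so its call did not hold there. Rpl14, with 0.67 ± 0.26 (edgeR adjusted p = 0.0555), was just outside the threshold.

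Of the 3 reported genes on the X chromosome, Rpl10 and Rps4x were called and Rpl36a was not (0.10 ± 0.21; edgeR adjusted p = 0.728). Rpl36a was at 23.2 and 12.0 normalised CPM in HCB rats, 14.5 and 13.1 in combination rats, against 13.3 and 14.5 in atorvastatin and 14.2 and 16.2 in control. It was chosen after its values were seen. The part of the difference in Y-linked genes between the libraries in the levels of Rpl10 and Rps4x was not tested.

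These calls depended on single libraries. Without HCB replicate 1 none of the 4 was called, with log2 fold changes of 0.44 for Rpl4, 0.46 for Rps4x, 0.43 for Rpl10 and 0.33 for Rpl37. The median over the genes was then -0.06, and Rps12 (-0.50), chosen after its values were seen, and Rps14 (-0.47) were lower. The 4 calls were also lost without either replicate of the combination, without atorvastatin replicate 1 or without control replicate 1. Without HCB replicate 2 the median was 0.37. Each of these fits leaves 1 rat in a group, so their numbers of calls are not compared. With library totals alone in place of TMM scaling, 14 of the 62 genes were called, where 51.2% of all genes tested were. All 14 were lower and none was among the 4, and the median was -0.31, against -0.64 over all genes. The TMM factors were 0.822 and 0.891 in HCB, 0.777 and 0.855 in the combination, 1.42 and 1.10 in atorvastatin, and 1.30 and 1.01 in control, so scaling alone moved the HCB-labelled libraries relative to the others. Relative to all genes, the median of the ribosomal protein genes was higher in both scalings.

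Counting genes whose 4 HCB-labelled libraries all lay above the other 4 gave 3 of 62, Rpl10, Rps2 and Rpl4, where 21.8% of all genes did so. None lay entirely below, where 25% of all genes did. The remaining 59 overlapped. In Rps2 the margin was narrow, with HCB-labelled libraries at 448, 251, 297 and 259 and the others at 242, 199, 223 and 244, and its average difference of 0.46 ± 0.22 did not pass (edgeR adjusted p = 0.111).

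**Figure D3:**
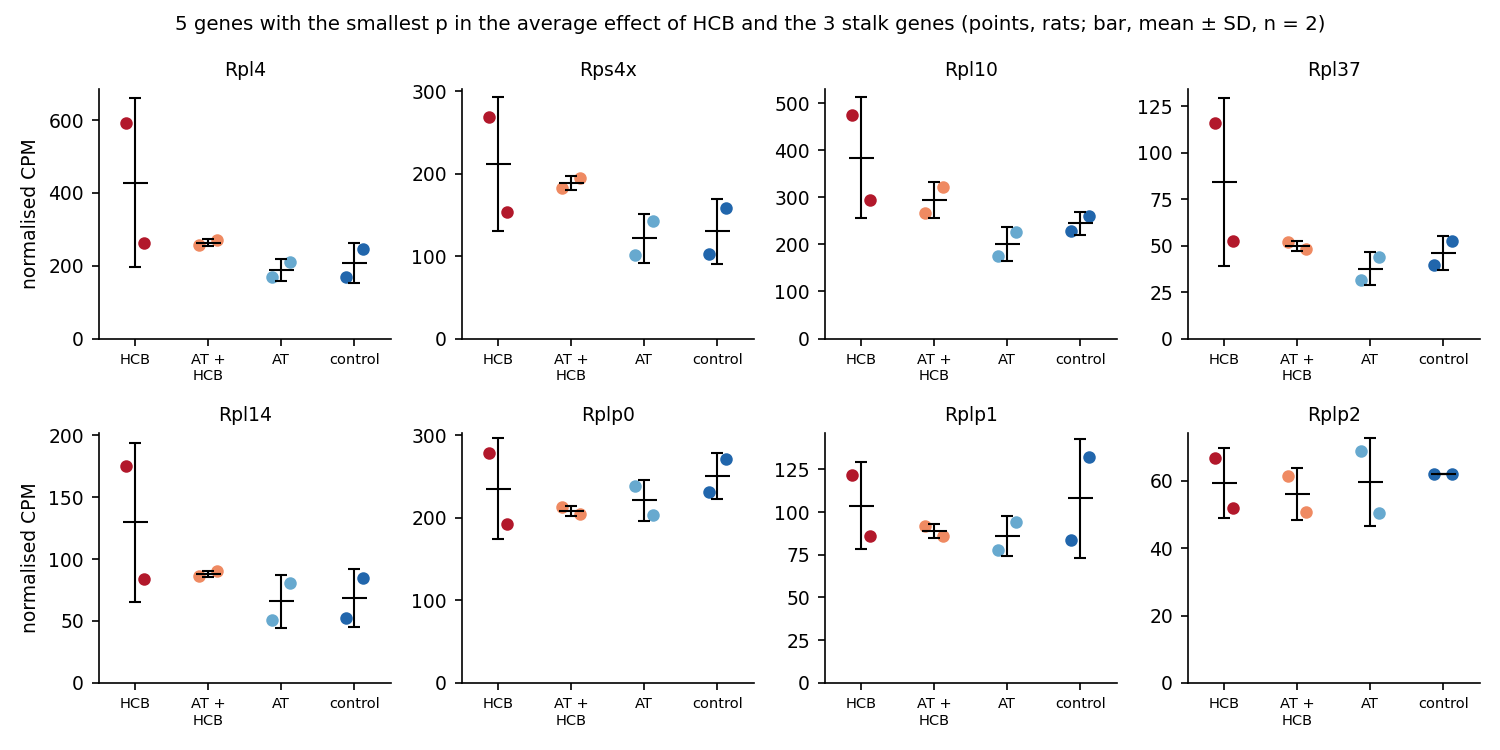
Normalised CPM of the 5 genes with the smallest p in the average effect of HCB (Rpl4, Rps4x, Rpl10, Rpl37, Rpl14) and of the 3 stalk genes, by group (points, single rats, replicate 1 left; bar, mean ± SD, n = 2; axes start at 0). The first 5 genes have 1 HCB rat far above the rest, for example Rpl4 at 592 against 263 in the other HCB rat, and in each stalk gene the HCB-labelled rats overlap the others.

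None of the 3 stalk genes, whose proteins recruit the elongation factors, was called. Rplp0, the base of the stalk, was at 278 and 192 normalised CPM in HCB, 213 and 204 in the combination, 238 and 204 in atorvastatin, and 231 and 271 in control, an average log2 difference with HCB of -0.09 ± 0.19 (edgeR adjusted p = 0.725). Rplp1 was at 122 and 85.8, 91.8 and 86.3, 77.9 and 94.2, and 83.5 and 133 in the same order of groups, a difference of -0.0042 ± 0.20 (edgeR adjusted p = 0.988). Rplp2 was at 66.8 and 52.0, 61.6 and 50.8, 69.0 and 50.5, and 62 and 62, a difference of -0.08 ± 0.17 (edgeR adjusted p = 0.741). The HCB-labelled libraries overlapped the others in all 3 genes, although both combination rats lay below both controls in Rplp0 and Rplp2, and the standard errors leave room for changes of either sign.

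Other members with roles beyond the ribosome's core work also missed the threshold. Rpsa, the small-subunit protein first known as the laminin receptor, averaged 255 ± 73.5 CPM in the HCB-labelled libraries and 227 ± 28.8 in the others (SD, n = 4 each), a log2 difference of 0.16 ± 0.22 (edgeR adjusted p = 0.566). Rps6, the substrate of the S6 kinases downstream of mTOR, averaged 184 ± 58.5 against 177 ± 23.2, a difference of 0.05 ± 0.22 (edgeR adjusted p = 0.876). Rpl5 and Rpl11, the MDM2-binding pair, differed by 0.14 ± 0.21 (edgeR adjusted p = 0.608) and 0.10 ± 0.24 (edgeR adjusted p = 0.745). For Rpl5 the HCB libraries held 266 and 148 CPM and the combination 150 and 174, against 149 and 173 in atorvastatin and 166 and 177 in control, so a single HCB library set the direction. Rpsa, Rps6, Rpl5 and Rpl11 each turned negative without HCB replicate 1 and with library totals alone.

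Atorvastatin was compared with control, and the combination with HCB. None of the 62 genes was called by edgeR in either comparison or in their average, where 0% of all genes tested were called as well. At an unadjusted p under 0.05 there were 0 genes against control, 2 against HCB and 2 in the average, all lower with atorvastatin. DESeq2 called no ribosomal protein gene, and 3 (0.0181%), 44 (0.265%) and 6 (0.0362%) of all genes in the same order. Against control the median log2 fold change of the 62 genes was -0.13, with 54 below 0. Against HCB it was -0.40, with all 62 below 0, and in the average -0.29, with 60 below 0, beside 0.01 over all genes in the average. Without control replicate 2 the median against control was 0.0482.

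The 2 genes under an unadjusted p of 0.05 against HCB were Rpl13a and Rpl24. Rpl13a, a large-subunit protein that in human cells also silences inflammatory messages, was at 67.9 and 76.2 normalised CPM in the combination and 200.2 and 73.2 in HCB, a log2 fold change of -0.92 ± 0.38 (edgeR adjusted p = 0.892). Rpl24 was at 79.4 and 87.8 in the combination and 228 and 87.9 in HCB (-0.92 ± 0.40; edgeR adjusted p = 0.892). In both genes HCB replicate 2 was close to the combination and HCB replicate 1 was over 2 times as high. Without HCB replicate 1 the median over the genes was 0.10 against HCB and -0.02 in the average, so the direction against HCB turned and little of the average remained without that library. The 2 genes of the average were the second row of Rps13 (-1.48 ± 0.50; edgeR adjusted p = 0.990) and Rpl24 (-0.63 ± 0.28; edgeR adjusted p = 0.990). In the comparison with control, HCB replicate 1 is in neither group and enters only through the shared scaling and estimate of spread. There the smallest p belonged to the barely detected second row of Rps13 (0.192 and 0.249 in atorvastatin, 0.609 and 0.663 in control; -1.51 ± 0.72; edgeR adjusted p = 1), followed by Rpl22 (-0.35 ± 0.30), Rps27 (-0.41 ± 0.34), Rps29 (-0.31 ± 0.26) and Rplp1 (-0.33 ± 0.28), all at an edgeR adjusted p of 1.

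The interaction of atorvastatin and HCB, which tests whether both HCB contrasts differ, called 0 of 62 genes (0% of all genes by edgeR, 0.0301% by DESeq2), and no ribosomal protein gene had an unadjusted p under 0.05. The median was -0.25, with 55 of 62 below 0, and it was 0.24 without HCB replicate 1. Rps25 had the smallest p (-0.92 ± 0.63), followed by Rpl13a (-0.77 ± 0.53), Rps15 (-0.63 ± 0.44), Rpl35a (-0.80 ± 0.56) and Rps24 (-0.69 ± 0.54), all at an edgeR adjusted p of 1. All 5 turned positive without HCB replicate 1, and in each HCB replicate 1 was the highest library, for example 27.6 normalised CPM in Rpl35a against 9.91 in HCB replicate 2.

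**Figure D4:**
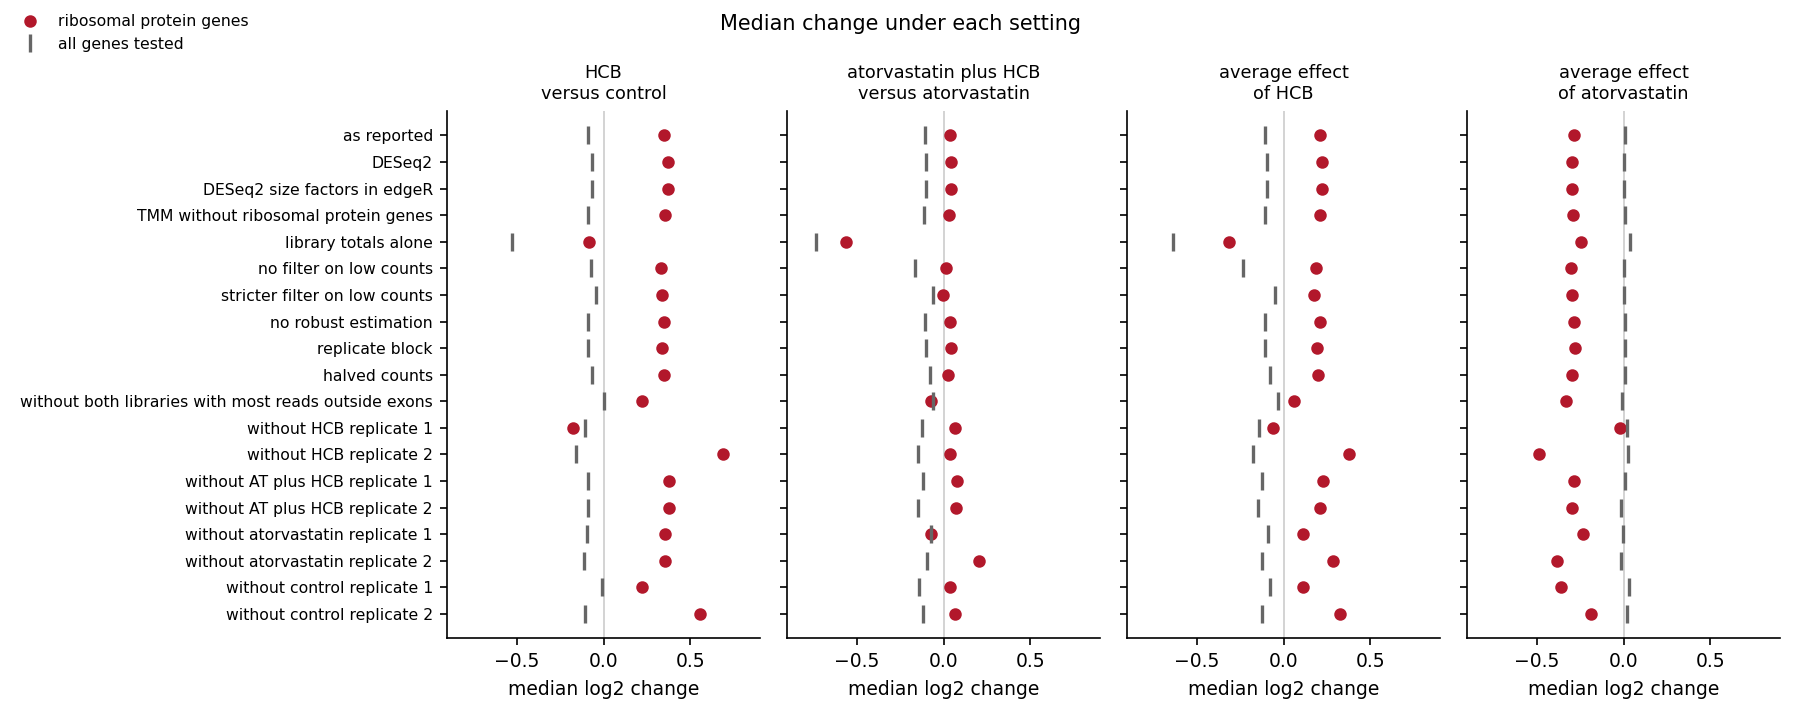
Median log2 fold change of the ribosomal protein genes (red points) and of all genes tested (grey ticks) as reported and under each alternative, for 4 comparisons. In HCB versus control the red point lies at 0.35 as reported, at -0.17 without HCB replicate 1 and at -0.08 with library totals alone, and in the average effect of atorvastatin it lies at -0.29 and, without HCB replicate 1, at -0.02.

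The genes of the mitochondrial ribosome, which translates the messages of the mitochondrial genome, give the nearest comparison, as they encode ribosomal proteins under separate control. In the average effect of HCB, 42 of 73 tested rose and 0 fell, with a median log2 fold change of 0.62, against 4 of 62 and 0.21 for the cytosolic genes. Of all genes tested 21.3% rose and 25.3% fell in this comparison, with a median of -0.11. In HCB versus control 28 of 73 rose (13% of all genes; median 0.74), and in the combination versus atorvastatin 11 of 73 (12.6% of all genes; median 0.52). Mrpl34 was at 20.1 and 14.7 normalised CPM in HCB rats, 18.4 and 15.1 in combination rats, against 7.38 and 6.98 in atorvastatin and 9.5 and 9.19 in control (1.06 ± 0.18; edgeR adjusted p = 0.000854). Mrpl55 rose by 1.37 ± 0.24, Mrps23 by 1.35 ± 0.24 and Mrpl30 by 1.09 ± 0.20, with edgeR adjusted p-values of 0.001, 0.00111 and 0.00145. Leaving out each library in turn, an alternative added after the data were seen, gave a median of 0.52 to 0.78 in the average. It ran from 0.57 to 0.98 in HCB versus control and from 0.34 to 0.81 in the combination versus atorvastatin. The number of calls depended on the library left out, and some omissions left none in either single comparison. Without HCB replicate 1 the median was 0.58 in the average and 0.57 in HCB versus control. Without both control and atorvastatin replicate 1 the average called fewer of these genes, and fewer of all genes tested, than with all libraries. With library totals alone, 8 rose and 4 fell in the average, where 51.2% of all genes tested were called. The median was then 0.11, against -0.64 over all genes. These levels, too, were higher in HCB replicate 1 than in replicate 2, by a median of 0.52.

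**Figure D5:**
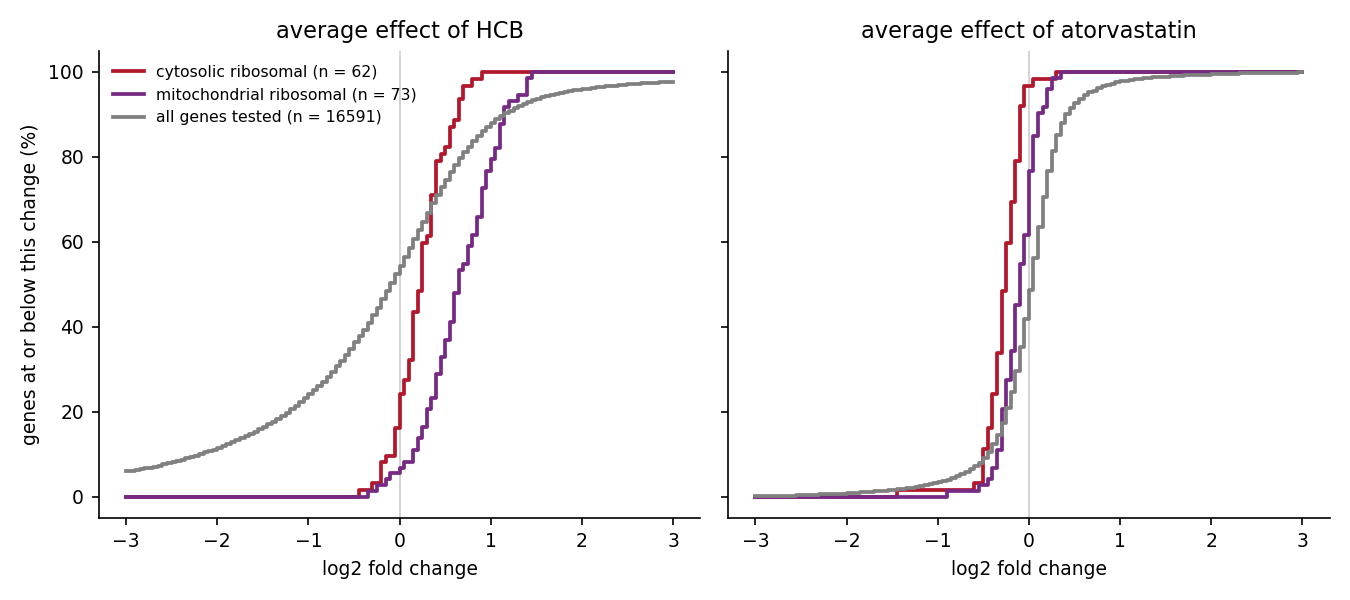
Share of genes (percent) at or below a given log2 fold change for 62 cytosolic ribosomal protein genes, 73 mitochondrial ones and all 16591 genes tested, in the average effect of HCB (left) and of atorvastatin (right). In the left panel the cytosolic genes form a steep curve with a median of 0.21, between all genes at -0.11 and the mitochondrial genes at 0.62; in the right panel their median is -0.29.

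Cytosolic ribosomal protein genes that the symbol pattern misses behaved variously. Of 5 tested, 2 rose with HCB in the average effect, Fau among them, and Rps15a, Rps27a and Rps3a did not pass. Of all genes tested 21.3% rose and 25.3% fell. Fau, a ubiquitin-like fusion with the small-subunit protein eS30, rose by 0.81 ± 0.23 (edgeR adjusted p = 0.0152), but its row has 1 exon record, as a processed copy has. Rps3a, the highest of the other 3, differed by 0.15 ± 0.22 (edgeR adjusted p = 0.602). These 5 were higher in HCB replicate 1 than in replicate 2 by a median of 1.06. Without that library, an alternative added after the data were seen as for the lists that follow, Fau stood at 0.53. The median of the 5 was then 0.05, against 0.41 with all libraries and 0.66 without HCB replicate 2. Among 6 tested paralogs 1 rose: Rps27l, a p53 target in human cells, was at 53.3 and 23.8 CPM in HCB rats, 31.3 and 29.9 in combination rats, against 6.56 and 14.8 in atorvastatin and 5.84 and 13.3 in control (1.76 ± 0.36; edgeR adjusted p = 0.0028). Rps27l stood at 1.44 without HCB replicate 1. It was also called with library totals alone (1.29), a setting in which Fau was not called.

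A list of genes with TOP messages that act in translation or bind RNA held 16 tested genes. In the average effect of HCB 4 rose, a share near that of all genes (21.3%), and 1 fell, where 25.3% of all genes did, with a median of 0.37. Eif4a2, an RNA helicase of initiation, rose by 0.98 ± 0.19 (edgeR adjusted p = 0.00191), Eif3l by 0.94 ± 0.23 (edgeR adjusted p = 0.00774) and Naca, which guards the nascent chain, by 0.78 ± 0.24 (edgeR adjusted p = 0.0227). Hnrnpa1, an RNA-binding splicing factor, fell to 32.2 ± 2.46 CPM in the HCB-labelled libraries, against 67.9 ± 6.18 in the others (SD, n = 4 each; -1.08 ± 0.16; edgeR adjusted p = 0.000298). Leaving out each library in turn, which leaves 1 rat in a group, gave a median of 0.21 to 0.48. Naca was not called when combination replicate 2, atorvastatin replicate 1, control replicate 1 or HCB replicate 1 was left out (edgeR adjusted p = 0.0623 to 0.0738). With library totals alone 0 rose and 4 fell, where 51.2% of all genes tested were called.

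Among 36 ribosome assembly genes 7 rose and 1 fell (median 0.13). The share that rose was not above the 21.3% of all genes, and the share that fell was below their 25.3%. Nop10, a small protein of the complexes that convert uridine to pseudouridine, rose by 1.42 ± 0.25 (edgeR adjusted p = 0.00102), and Bop1 and Heatr1, which act in processing and transcription of ribosomal RNA, by 0.76 ± 0.19 and 0.70 ± 0.18 (edgeR adjusted p = 0.00694 and 0.0103). Nop58, a core protein of the methylation complexes, fell (-0.65 ± 0.20; edgeR adjusted p = 0.0197). Of 15 genes of RNA polymerase I and its factors 0 rose and 1 fell, Taf1d (-1.64 ± 0.31; edgeR adjusted p = 0.00162), and the summed level of the 15 genes was 222 to 236 CPM in the HCB-labelled libraries and 221 to 234 in the others. Over the assembly genes the median ran from 0.03 to 0.27 when each library was left out in turn. Heatr1 was not called without control replicate 1 (edgeR adjusted p = 0.0513), and Nop58 was not called without HCB replicate 1, either combination replicate, atorvastatin replicate 2 or control replicate 2 (edgeR adjusted p = 0.0559 to 0.118). With library totals alone 1 assembly gene, Nop10, rose and 10 fell, and of the polymerase genes 0 rose and 6 fell. In that setting 51.2% of all genes tested were called.

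Regulators of ribosomal protein synthesis were tested as a list of 21 mTOR and Myc pathway genes, of which 2 rose and 1 fell, both smaller shares than the 21.3% and 25.3% of all genes. Deptor, an inhibitor of mTOR, rose by 1.06 ± 0.19 (edgeR adjusted p = 0.00111) and Eif4ebp1, the translation repressor that mTOR inactivates, by 0.79 ± 0.26 (edgeR adjusted p = 0.0258). Mycn fell to 0.101 ± 0.0295 CPM in the HCB-labelled libraries, against 1.88 ± 0.695 in the others (SD, n = 4 each; -4.17 ± 0.51; edgeR adjusted p = 9.46e-05). Mtor itself, at 109 ± 21.4 against 79.1 ± 6.37, did not pass (0.46 ± 0.18; edgeR adjusted p = 0.0545). With library totals alone this list gave 0 higher and 7 lower, where 51.2% of all genes tested were called. Its median ran from -0.01 to 0.21 when each library was left out in turn. Eif4ebp1 was not called when combination replicate 2, atorvastatin replicate 1, control replicate 1 or HCB replicate 2 was left out (log2 fold changes of 0.57 to 0.77). Of 9 genes of the p53 response 3 rose and 0 fell, against 21.3% and 25.3% of all genes, a comparison that 9 genes leave imprecise: Phlda3 by 1.6 ± 0.18, Ccng1 by 0.90 ± 0.18 and Mdm2, the partner of Rpl5 and Rpl11, by 0.67 ± 0.24 (edgeR adjusted p = 6.01e-05, 0.00239 and 0.0426). Mdm2 was at 47.0 and 20.4 CPM in HCB rats, 17.7 and 22.9 in combination rats, against 17 in both atorvastatin rats and 17.2 and 14.7 in control, so its highest value was again HCB replicate 1, and without that library it was not called (0.33; edgeR adjusted p = 0.141). It was also not called when combination replicate 2 or 1 of the atorvastatin or control libraries was left out (edgeR adjusted p = 0.067 to 0.118). Phlda3 stood at 1.68 without HCB replicate 1. With library totals alone Phlda3 (1.08) was the 1 gene of this list that rose, and 3 fell, beside 51.2% of all genes called. Ccng1 was not called in that setting (0.39; edgeR adjusted p = 0.112). In the average effect of atorvastatin 0 genes of any of these lists were called.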

How the data were processed

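RNA of rat liver was sequenced in 8 libraries of 4 groups, 2 rats each, so n counts separate animals. The deposited counts are whole reads per gene in 30562 Ensembl genes (release 111, mRatBN7.2), made by the authors with featureCounts 2.0.6 per the file headers, with neither a strand nor a multiple-alignment option, so reads that overlap on opposite strands cannot be told apart. Trimming with fastp 0.23.4 and alignment with STAR 2.7.10b are given in the submitters' processing notes. All read classes sum to 507.5 M, 2.04 times the stated 249.2 M, so mates appear to have been counted singly.

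From these counts, 1 edgeR 4.0.16 quasi-likelihood model (R 4.3.3; filterByExpr, TMM, robust) of all 4 groups gave 7 contrasts, with Benjamini-Hochberg adjustment over 16591 genes at 0.05. The common biological coefficient of variation was 0.295, with 4 residual degrees of freedom, and the scripts were tested on simulated data. Log values used a prior count of 2, and DESeq2 1.42.0 was an alternative. Other alternatives were the scaling, the filter, robust estimation, a replicate block, halved counts, fits of the compared groups alone, and leaving out libraries.

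The members, gene lists and tests were chosen with earlier results of these data known. The genes named were the stalk genes, Rpsa, Rps6, Rpl5, Rpl11 and Rps4x in any case, per comparison those past the threshold (up to 8 in each direction) or, where fewer than 5 passed, the 5 with the smallest p, the 4 highest and 4 lowest by level, the 4 most and 4 least variable, and up to 4 per related list. Genes outside this rule are said to be so where they appear. The results of some single genes are not reported here.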

Additional observations from a re-analysis of the deposited data

How the results depend on the processing

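HCB versus control called 1 gene with DESeq2 (30.8% of all genes tested) and 8 without a filter on low counts (23.7% of all genes). Its median was -0.0842 with library totals alone. The combination versus atorvastatin called 6 genes, all lower, with library totals alone (median -0.56), where 33.3% of all genes were called. The average effect of HCB called 14 genes, all lower, with library totals alone (median -0.31), 10 without a filter, and 0 without both libraries with most reads outside exons (control and atorvastatin replicate 1). In this comparison library totals alone moved the median of all genes to -0.64, against -0.11 as reported, and called 51.2% of them. The fit without a filter called 36.7% of all genes. Signs that turned in the average effect of HCB were those of Rplp1 (0.00886 with DESeq2 and with its size factors in edgeR, 0.00714 with the replicate block), of Rplp2 (0.0448), Rps6 (-0.0823) and Rpl11 (-0.0354) without those libraries, and of Rpsa (-0.36), Rps6 (-0.47), Rpl5 (-0.39) and Rpl11 (-0.42) with library totals alone. In the combination versus atorvastatin, library totals alone gave -0.0479 for Rpl10, -0.11 for Rpl21 and -0.25 for Rpl18. The cause of these changes was not tested. The share of reads was 0.522% in the combination, 0.744% in atorvastatin and 0.770% in control without mitochondrial genes in the denominator, and 0.524%, 0.742% and 0.746% with the ribosomal protein genes outside the pattern added. Leaving out each library in turn gave 0 to 20 genes called and a median of -0.17 to 0.69 in HCB versus control, and 0 to 19 called in the average effect of HCB, with the highest values without HCB replicate 2. The median ran from -0.76 to 0.0956 in the combination versus HCB and from -0.62 to 0.24 in the interaction. Over the same omissions the average effect of HCB ran from -0.21 to 0.0359 for Rplp0, -0.15 to 0.21 for Rplp1, -0.17 to 0.0476 for Rplp2, -0.0493 to 0.34 for Rpsa, -0.16 to 0.23 for Rps6, -0.0729 to 0.32 for Rpl5 and -0.23 to 0.35 for Rpl11. Rps25 ran from -0.0031 to 1.58 in HCB versus control and from -1.54 to 0.0753 in the combination versus HCB, where Rps14 ran from -1.37 to 0.14. Rplp1 ran from -0.63 to 0.0457 in atorvastatin versus control. The interaction ran from -1.50 to 0.11 for Rps25, -1.31 to 0.14 for Rpl13a, -1.07 to 0.0154 for Rps15, -1.35 to 0.13 for Rpl35a and -1.23 to 0.20 for Rps24. Same-numbered replicates deviated together in 1 of 6 pairs of groups (correlation over 0.1), atorvastatin and control (0.27). Replicate 1 of these groups also had the most reads outside exons (34% and 27.7%). Such correlations cannot show whether rats of the same number were handled together, which was not tested. The replicate block called 3 genes, all higher, in the average effect of HCB (45.5% of all genes were called), without Rpl37 (edgeR adjusted p = 0.0711). With 2 rats per group, a variation coefficient of 0.295 and 4 residual degrees of freedom, differences of the size of the printed standard errors were not detectable.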
